A study of Solanum tuberosum with 72 samples.

Results

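In leaves of potato (Solanum tuberosum) seedlings, 194 spots of a 2-colour array carried a positive change of at least 1 log2 unit both after 27 h of cold and after 27 h of salt. They were chosen by these measured values. Of 32448 spots, 13585 had 2 or more values in each of the 24 groups of tissue, condition and time, and a spot was kept when the mean of the 3 stress arrays minus the mean of the 3 control arrays was 1 or more in both stresses. The 27 h leaf values under cold and salt are therefore given as a description with no test. Tests were made on leaf at 3 and 9 h, on heat and on root, where the choice used no array except the 27 h leaf controls, which leaf heat at 27 h shares. Most spots were printed as duplicates, so the 194 spots stand for 119 printed features.

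Seedlings of the variety Gilroy were raised from true seed in hydroponic culture for 5 weeks and then kept for 3, 9 or 27 h in medium at 4 °C (cold), at 35 °C (heat), with NaCl (salt) or without stress (control). The labels name 100 mM NaCl in the description and 150 mM in the treatment field, and name a column kit in the former and phenol or trizol in the protocol for RNA extraction. "Leaf" is all aerial tissue, every RNA sample combined 6 plants, and replicates 1 to 3 are independent experiments, so that each group has 3 arrays. The RNA of a sample carried Cy3 and was set against Cy5-labelled RNA pooled from unstressed plants, with no dye swap. All plants were of the same variety, and the labels name no transgene or mutation.

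Which channel stands in the numerator of the deposited log2 ratio is not stated in the sources used here. A positive change therefore means that the log2 ratio was higher with stress than in the matching controls, and it may be a rise or a fall of RNA. Signs can be compared between arrays, since every array had the same dye orientation. The lowest correlation between any 2 arrays, over all spots, was r = -0.33, between leaf cold 27 h replicate 3 and leaf heat 9 h replicate 2, which is 1 of 2556 pairs below -0.3 and joins opposite temperature stresses. The ratios compare like tissue with like, so leaf and root identity could not be checked from markers. In whole tissue, fewer cells of a type and less RNA per cell cannot be told apart.

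Cold and high salt both limit the water available to plant cells, the first by slowing uptake through chilled roots and the second by lowering the water potential of the medium. Work in Arabidopsis and crops has linked part of the shared response to abscisic acid, to CBF/DREB transcription factors and to protective proteins such as dehydrins. Cold also alters starch use and stiffens membranes, while salt adds the toxicity of sodium ions.

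After 27 h the change under cold ran from 1.0 to 4.60 with a median of 1.53, and that under salt from 1.01 to 4.08 with a median of 1.45. These ranges start at 1 by choice. Of the 13585 eligible spots, 444 reached 1 under cold and 302 under salt. The 194 spots were thus 43.7% of the first and 64.2% of the second. Both changes subtract the same leaf control arrays at 27 h, so noise in these controls can move both at once. The part of the overlap that comes from the shared controls was not tested. The cold change was the larger in 112 spots and the salt change in 81, and the difference between them had a median of 0.06 and a range of -0.87 to 1.92. A change of 2 or more was reached by 55 spots under cold, by 31 under salt and by 21 under both. The choice had a soft edge. Spots 161485 (1.0 under cold, 1.17 under salt) and 136258 (1.0 and 1.37) lay just inside it. Spots 154357 (0.997 and 1.09) and 137173 (0.998 and 1.43) lay just outside. The smaller of the 2 changes lay between 1 and 1.1 in 52 chosen spots and between 0.9 and 1 in 41 others.

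The largest shared change belonged to spot 153617 and its duplicate 154461, with 4.39 and 4.33 under cold and 4.08 and 4.02 under salt. The table of probe annotation used here gives them no gene. Next came spot 133553, with 4.60 under cold and 3.61 under salt, which belongs to LOC102577835, an acidic chitinase gene (ChtA) of the kind that cuts the chitin of fungal walls. In 75 cases both spots of a duplicate pair were chosen, which accounts for 150 spots. Partners differed by a median of 0.078 under cold and 0.0863 under salt. Of the other 44 spots, 24 had a partner with too few values and 20 a partner below the edge, whose smaller change was 0.77 to 1.0. The layout of pairs was inferred from fixed steps in the order of the spots, and it matched 905 of 905 pairs annotated with the same clone. Partners share their printed clone, so they are not replicates of a condition. Values were present on all 72 arrays for 126 of the spots and on at least 61 for every spot.

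A choice made on 2 of the experiments was carried into the left-out experiment. It gave 222, 183 and 176 spots when experiment 1, 2 or 3 was left out. In the left-out experiment the median cold change of these spots was 1.40, 1.65 and 1.43, and the median salt change 1.21, 1.56 and 1.45. The change there was above 0 in at least 98.2% of them in every case. It was 1 or more in 70.9% to 86.4% under cold and in 62.7% to 84.2% under salt. The left-out arrays had themselves helped to choose the full set, and the cold and salt changes there share a control array. No share of all eligible spots is set beside these percents, so they are a description and not a test of the set.

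**Figure D1:**
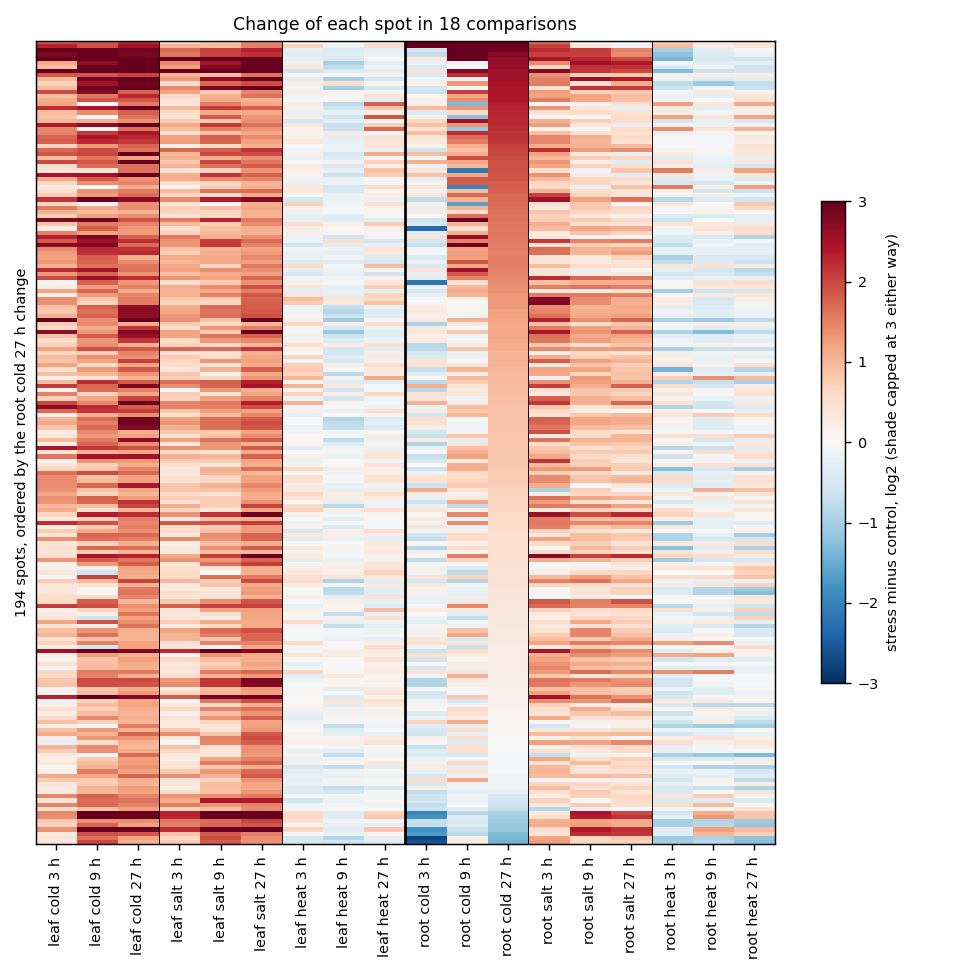
Mean change (log2 ratio, stress minus control of the same tissue and time) of the 194 spots in each of the 18 comparisons, with spots ordered down the axis by their root cold change at 27 h (4.75 to -1.41), comparisons side by side, and shade capped at 3 in either direction. Leaf cold and leaf salt are positive in nearly all spots at 9 and 27 h, the latter by choice, while leaf heat stays near 0 and root cold holds both signs.

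In leaf the positive changes were present before 27 h under both stresses. Here and below a spot is called when its limma p-value, adjusted by the Benjamini-Hochberg method over all spots tested in the tissue, is under 0.05. After 3 h of cold 101 of the 194 spots were called positive and 0 negative, where 9.17% of the 15601 leaf spots tested were positive and 6.85% negative. After 9 h of cold 161 were positive and 2 negative, against 11.8% and 10.7%. After 3 h of salt 43 were positive and 0 negative, against 0.705% and 0.0513%, and after 9 h 135 and 0, against 3.81% and 4.19%. The share of chosen spots called positive was thus above the share of all tested spots in each of these 4 comparisons.

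The median change of the 194 spots under cold was 0.87 at 3 h and 1.43 at 9 h, and under salt 0.77 and 1.13, while the median over all tested spots was within 0.03 of 0. On the 3 h cold arrays the median log2 ratio of the 194 spots was 0.88, 0.59 and 0.64 (replicates 1 to 3), on the 3 h salt arrays 0.48, 0.63 and 0.73, and on the 3 h controls -0.01, -0.22 and -0.09. At 9 h the cold arrays gave 1.21, 1.68 and 1.63, the salt arrays 1.04, 1.49 and 1.09, and the controls 0.04, 0.04 and 0.03. Every stress array was above every control array at both times. At 27 h the cold arrays gave 1.55, 1.52 and 1.55, the salt arrays 1.34, 1.44 and 1.61, and the controls 0.00, -0.12 and 0.08, as the choice requires. Single spots ranged at 3 h from -0.28 to 3.86 under cold and from -0.03 to 3.55 under salt, and at 9 h from -0.62 to 5.03 and from 0.02 to 4.54. A change of 1 or more was reached by 80 spots at 3 h and 136 at 9 h under cold, and by 72 and 111 under salt.

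**Figure D2:**
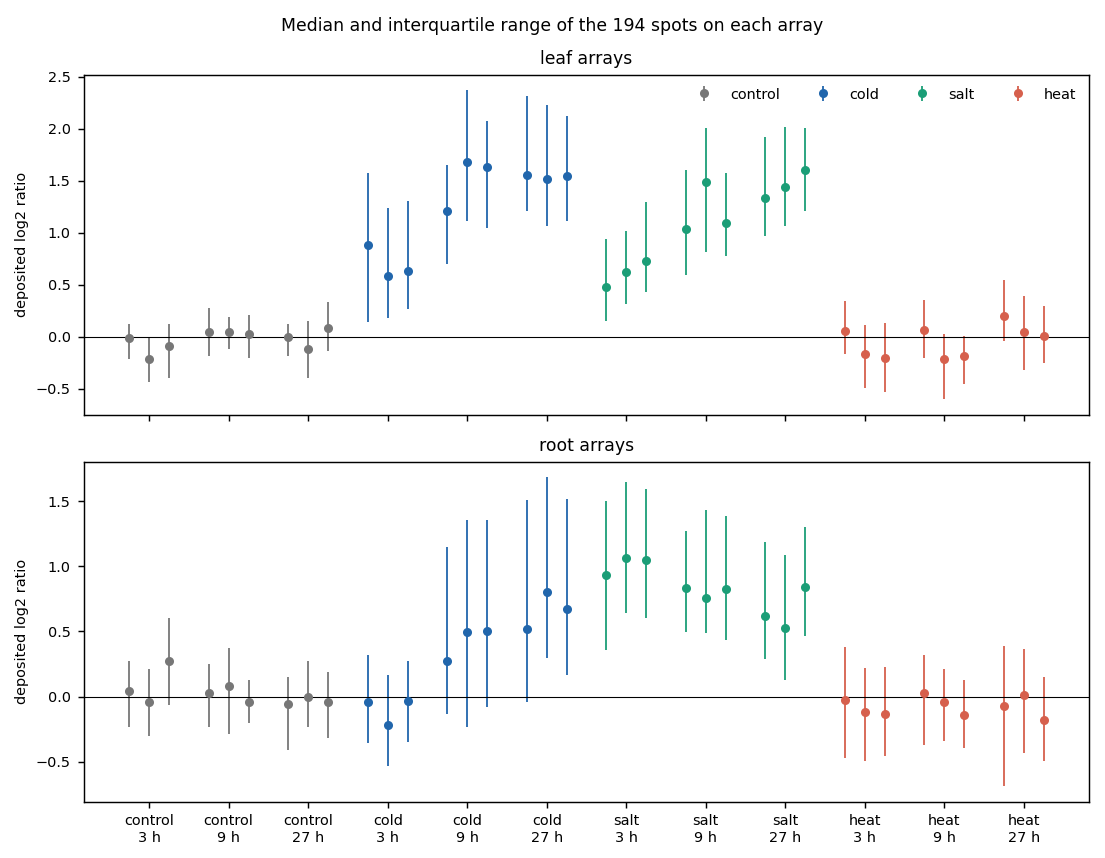
Median deposited log2 ratio of the 194 spots on each of the 72 arrays, by tissue, condition and time, with a point for each of the 3 replicate arrays and bars for the interquartile range over spots. The leaf cold and salt arrays lie above the controls at every time, the root salt arrays do so from 3 h on, and the root cold arrays from 9 h on.

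Under cold 95 spots (49.0%) were called positive at both 3 and 9 h, against 4.92% of all leaf spots tested, 66 (34.0%) at 9 h alone, against 6.92%, 6 (3.09%) at 3 h alone, against 4.25%, and 27 at neither time. Under salt these counts were 41, 94, 2 and 57, or 21.1%, 48.5%, 1.03% and 29.4% of the 194, against 0.513%, 3.29%, 0.192% and 96.0% of all spots. A call at 9 h and none at 3 h is not in itself a difference between the times. In the direct comparison of 9 h with 3 h under cold, 18 spots were called positive and 0 negative, against 1.41% and 0.891% of all spots, with a median difference of 0.53. Under salt 0 were called in either direction, against 0.00641% in each, with a median of 0.36 and 26 spots (13.4%) at an unadjusted p under 0.05, against 8.3% of all spots. Quantile scaling, which gives all arrays the same spread, changed these counts: at 9 h under cold 101 were positive and 1 negative, at 3 h under salt 78 and 0, and in the direct cold comparison 0 and 1. Of all leaf spots that scaling called 8.39%, 1.90% and 0.256% in either direction. As deposited, the interquartile range over all eligible spots differed between conditions, with a median array value of 0.289, 0.330 and 0.259 for leaf controls at 3, 9 and 27 h, 0.439, 0.618 and 0.567 for leaf cold and 0.389, 0.456 and 0.472 for leaf salt. The part of this width in the counts was not tested beyond that scaling. Without leaf cold 9 h replicate 1 the direct cold comparison gave 28 positive spots, or 14.4%, against 2.58% of all spots in either direction.

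**Figure D3:**
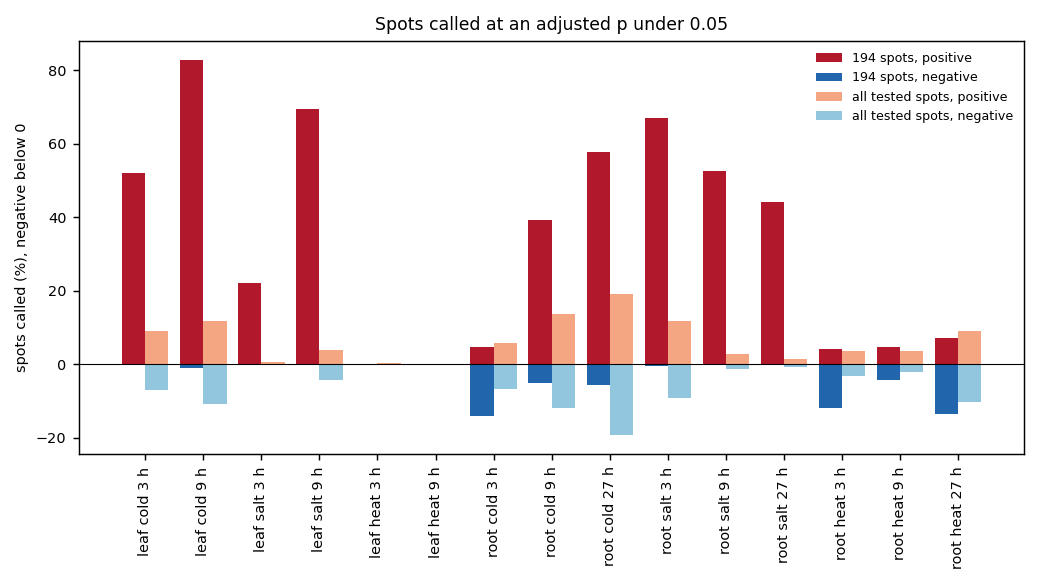
Percent of the 194 spots (dark bars) and of all tested spots (light bars) called in 15 comparisons with the control (limma, adjusted p under 0.05), positive above 0 and negative below it, without the 27 h leaf comparisons. Positive shares stand above those of all spots under cold and salt in leaf at 3 and 9 h and under salt in root. The leaf heat bars of the 194 spots are at 0, where those of all spots reach at most 0.378%.

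Cold and salt share their control arrays at each time, so their changes are set side by side and compared directly. At 3 h the difference cold minus salt was called positive in 16 spots and negative in 4, against 5.67% and 3.69% of all tested spots, with a median of 0.06. At 9 h it was positive in 28 and negative in 3, against 4.78% and 2.61%, with a median of 0.23. The negative share was below the background at both times and the positive share above it. These counts moved with the processing: with quantile scaling, which called 4.19% and 0.256% of all spots in either direction, they were 1 positive and 15 negative at 3 h and 0 at 9 h, and with only the compared groups in the fit 3 positive and 0 negative at 9 h. The fit of only the compared groups called 0.788% of all spots at 9 h. At 3 h the counts were 1 positive and 2 negative without leaf cold replicate 1, 9 and 2 without leaf salt replicate 1, and 10 and 1 without leaf salt replicate 2. Together these made 1.55%, 5.67% and 5.67% of the 194, against 3.95%, 6.52% and 5.90% of all spots. At 9 h the counts were 14 and 0 without leaf cold replicate 2 and 14 and 4 without leaf salt replicate 1. These made 7.22% and 9.28%, against 3.57% and 4.37%. A direction of the difference over the whole set was therefore not settled.

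Spot 135911, which has no annotated gene, had the most positive called difference at 9 h. Its log2 ratio was 2.55, 3.29 and 2.87 on the cold arrays and 1.05 and 0.78 on the 2 salt arrays that measured it. The cold arrays lay above both salt arrays, and the difference was 1.99 (limma adjusted p = 7.48e-04). Its duplicate 134052 gave 0.94 and was not called, and the call of 135911 was lost with quantile scaling (1.02). The most negative called difference was that of spot 163000 of R1, at -0.79 (limma adjusted p = 0.0215), which was lost with quantile scaling, with only the compared groups in the fit, and without leaf cold 9 h replicate 2 (-0.63), leaf salt 9 h replicate 1 (-0.70) or replicate 2 (-0.79). R1 encodes alpha-glucan water dikinase, the enzyme that puts phosphate on starch and so opens it to breakdown.

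Few spots were called under heat in leaf, both among the 194 and among all spots tested. The low counts therefore do not set the 194 spots apart. At 3 and 9 h 0 of the 194 were called in either direction by limma, against 0.378% positive and 0.237% negative of all tested spots at 3 h, and against 0.135% and 0.032% at 9 h. An unadjusted p under 0.05 was found for 21 spots (10.8%) at 3 h and for 28 (14.4%) at 9 h, against 11.1% and 8.74% of all tested spots. The median change was 0.03 at 3 h (range -0.60 to 1.04), -0.17 at 9 h (-1.13 to 0.52) and 0.08 at 27 h (-0.60 to 1.89). At 27 h 0 were positive and 2 negative, against 0.41% and 0.218%, and both belong to a duplicate pair with no annotated gene, spots 147841 (-0.55) and 148685 (-0.60), named after their values were seen. This last comparison uses the 27 h controls that helped to choose the spots. With quantile scaling 4 were positive at 3 h and 5 negative at 9 h, which is 2.06% and 2.58% of the 194, against 3.45% and 2.19% of all spots called in either direction.

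In root, salt gave positive changes in these spots at every time. At 3 h 130 of the 194 were called positive and 1 negative, against 11.9% and 9.06% of the 14866 root spots tested. At 9 h 102 were positive and 0 negative, against 2.96% and 1.37%, and at 27 h 86 and 0, against 1.58% and 0.747%. The median change was 1.0, 0.80 and 0.76 at 3, 9 and 27 h. The 3 h salt arrays had member medians of 0.93, 1.06 and 1.05 against 0.04, -0.04 and 0.28 on the controls, so the groups did not overlap. The 27 h salt arrays had 0.62, 0.53 and 0.84 against -0.06, 0.00 and -0.04, again with no overlap. A positive call was made at all 3 times in 64 spots (33.0%), against 0.908% of all root spots tested, and at some time in 153 (78.9%), against 13.2%. At no time were 40 spots (20.6%) called, against 76.9%. At 27 h the count fell to 52 without control replicate 1, to 53 without salt replicate 1 and to 37 without salt replicate 3. In those fits 1.27%, 1.35% and 0.874% of all spots were called in either direction.

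Spot 139928, with no annotated gene, had the most positive root salt change at 3 h. Its log2 ratio was 2.80, 3.36 and 2.86 on the salt arrays and 0.32, 0.25 and 0.03 on the controls, which do not overlap, and the change was 2.80 (limma adjusted p = 7.49e-08). At 9 and 27 h the most positive change was that of ChtA spot 132709, with 2.60 (limma adjusted p = 0.0197) and 2.38 (limma adjusted p = 0.0488). The first call was lost without control replicate 1 or 2 or salt replicate 2 or 3 (2.37 to 2.59), and the second without any of the controls or salt replicate 1 or 3 (1.78 to 2.64). The 1 negative call at 3 h was spot 151309, with -0.85 (limma adjusted p = 0.0235). Its salt arrays read -0.81, 0.11 and -0.47 against 0.43, 0.20 and 0.76 on the controls, which do not overlap. That call was lost with only the compared groups in the fit and without control replicate 1 or 3 or salt replicate 1 or 3 (-0.87 to -0.65).

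Cold in root began differently. At 3 h only 9 of the 194 spots were called positive and 27 negative, against 5.79% and 6.72% of the root spots tested. At 9 h 76 were positive and 10 negative, against 13.7% and 11.9%, and at 27 h 112 and 11, against 19.3% and 19.2%. Positive calls were thus below the background share at 3 h and above it at 9 and 27 h, and negative calls were above it at 3 h alone. The median change was -0.13, 0.39 and 0.83 at the 3 times. On the arrays the member median at 3 h was -0.04, -0.22 and -0.04 under cold and 0.04, -0.04 and 0.28 in the controls. At 9 h it was 0.28, 0.50 and 0.51 against 0.03, 0.08 and -0.04, and at 27 h 0.52, 0.81 and 0.67 against -0.06, 0.00 and -0.04. The groups touched at 3 h and were apart at 9 and 27 h.

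Single spots did not all follow this course. Over the 3 times 126 spots (64.9%) were called positive in root cold at least once, against 25.6% of all root spots tested, and 40 (20.6%) negative at least once, against 26.0%. Both signs were called in 21 spots (10.8%), against 2.25%, and 49 (25.3%) were never called, against 50.6%. Positive at 9 and 27 h were 62 spots (32.0%), against 9.82%, and at all 3 times 8 (4.12%), against 2.3%. Negative at 3 h and positive at 27 h were 13 spots (6.7%), against 0.713%. At 3 h the counts were 4 positive and 16 negative without cold replicate 2, and 2 and 21 without cold replicate 3. Together these made 10.3% and 11.9% of the 194, against 7.87% and 8.27% of all spots. At 9 h quantile scaling gave 51 positive and 6 negative, together 29.4% of the 194, against 15.8% of all spots. Counting salt and cold together, 176 of the 194 spots (90.7%) were positive in at least 1 of the 6 root comparisons, against 32.4% of all root spots tested, and 18 in none.

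The extremes of root cold were unannotated duplicate pairs. Spot 131700 read 2.38, 3.19 and 3.28 on the 3 h cold arrays against -0.27, -0.53 and 0.08 on the controls, and 4.26, 4.02 and 3.63 at 9 h against -0.25, -0.15 and -0.67. The groups did not overlap, and its change was 3.19 at 3 h (limma adjusted p = 6.68e-09) and 4.33 at 9 h, with 4.75 for its duplicate 132544 at 27 h. Under root salt spot 131700 changed by 2.05 at 3 h but by 0.31 and -0.11, both uncalled, at 9 and 27 h.

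Spot 144700 went the other way. It read -2.18, -2.40 and -2.56 on the 3 h root cold arrays against 0.15, 0.54 and 0.42, a change of -2.75 (limma adjusted p = 7.64e-06), and its duplicate 145544 gave -2.58. In leaf cold it changed by 1.66 at 9 h. At 27 h of root cold the pair changed by -1.36 and -1.41, the latter not called without cold replicate 1 (-1.10) or control replicate 3 (-1.12). Spot 158627 had the most negative root cold change at 9 h, -2.12 (limma adjusted p = 5.65e-05), between changes of 0.38 at 3 h, not called, and 1.90 at 27 h, called.

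The 112 spots that were positive in root cold at 27 h had a median leaf cold change of 1.11 at 3 h and 1.68 at 9 h. The 71 spots not called there had 0.42 and 1.02, and the 11 negative ones 0.69 and 1.75. Under leaf salt the medians at 3 h were 0.87, 0.49 and 1.46 for the positive, uncalled and negative spots, and at 9 h 1.16, 0.93 and 1.84. These values are a description, since the split uses called spots. Of the 11 negative spots, 4 were the chosen spots of LOC102577637.

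The difference between tissues was tested on the 13585 spots measured in both. Under cold the change at 3 h was higher in leaf than in root in 76 of the 194 spots and lower in 0, against 5.34% and 1.37% of all spots, with a median difference of 0.96. Of these 76, 23 were negative in root and 53 were not called there. At 9 h it was higher in 70 and lower in 3, against 4.09% and 4.95%, with a median of 0.95, and the 3 lower ones were positive in root. Under salt the difference was higher in 7 and lower in 12 at 3 h, against 0.869% and 1.07%, with a median of -0.22. At 9 h it was higher in 4 and lower in 0, against 0.0662% and 0.206%, with a median of 0.29. Quantile scaling gave 16 higher and 0 lower for cold at 9 h, 20 and 1 for salt at 3 h, and 2 and 0 for salt at 9 h, against 1.69%, 1.3% and 0.478% of all spots called in either direction, so the direction for salt at 3 h turned with the scaling. With only the compared groups in the fit, salt at 3 h gave 5 higher and 4 lower, where 1.07% of all spots were called. For salt at 3 h the 19 called spots fell to between 7 and 11 without leaf control replicate 2 or 3, leaf salt replicate 1, root control replicate 2 or 3, or root salt replicate 1 or 2. Those fits called 0.552% to 1.38% of all spots. For salt at 9 h the 4 called spots became 2 without leaf control replicate 2 or 3, leaf salt replicate 2, root control replicate 1, or root salt replicate 1 or 2, and 11 without leaf salt replicate 1. The fits that gave 2 called 0.0221% to 0.118% of all spots, and the fit that gave 11 called 0.361%.

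**Figure D4:**
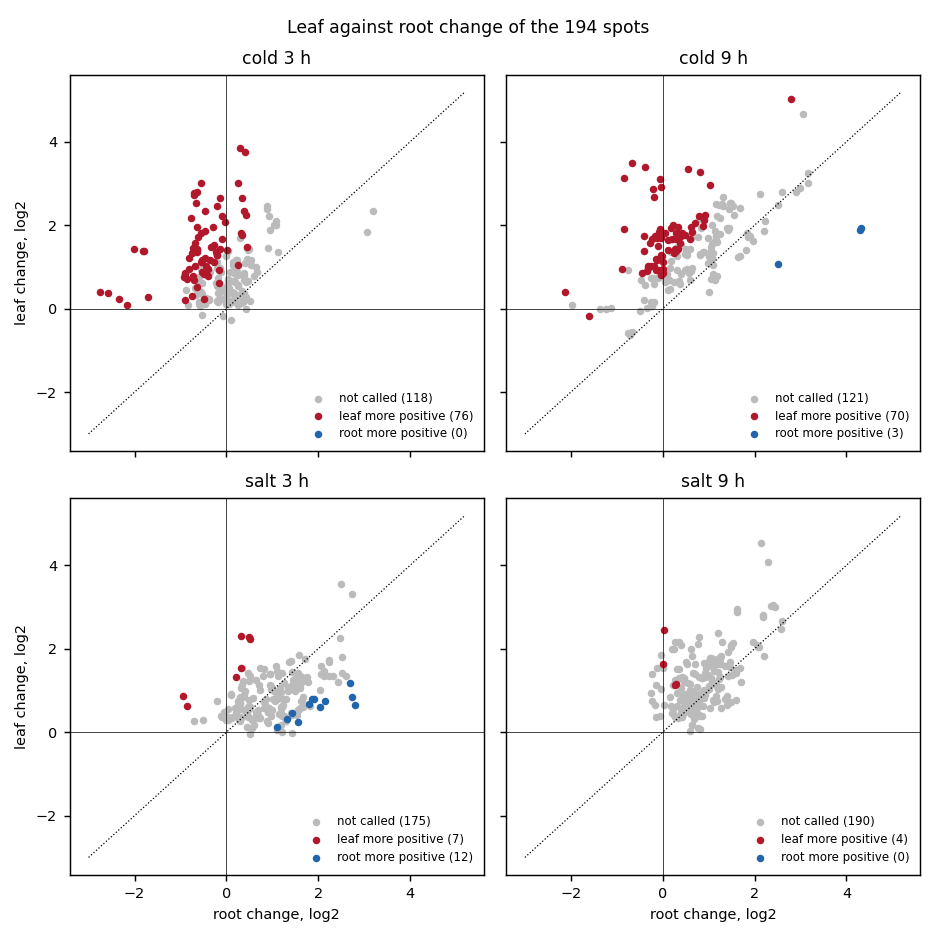
Change in leaf (vertical axis, log2) against change in root (horizontal axis, log2) for the 194 spots under cold and under salt at 3 and 9 h, a point for each spot, coloured by the call of the difference, with a dotted diagonal of equal change. At 3 h of cold the 76 called spots all lie above the diagonal, and at 3 h of salt the 7 and 12 called spots lie on both sides of it.

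Heat in root gave calls of both signs. At 3 h 8 of the 194 spots were positive and 23 negative, against 3.73% and 3.24% of all tested spots. At 9 h 9 were positive and 8 negative, against 3.67% and 2.07%, and at 27 h 14 and 26, against 9.19% and 10.1%. Only the negative share at 3 h was more than 3 times the background. The median change was -0.13, -0.15 and 0.01. Quantile scaling turned these counts into 12 positive and 37 negative at 3 h, 16 and 27 at 9 h, and 22 and 17 at 27 h. Under that scaling the calls of both signs made 25.3%, 22.2% and 20.1% of the 194 at the 3 times, against 13%, 15.5% and 15.4% of all spots. With only the compared groups in the fit there were 0 and 2 at 27 h, or 1.03%, against 1.52% of all spots. Without heat replicate 1 there were 2 and 17 at 3 h, 1 and 2 at 9 h, and 7 and 9 at 27 h. Together these made 9.79%, 1.55% and 8.25% of the 194, against 3.16%, 1.49% and 7.63% of all spots. Without control replicate 1, 2 or 3 there were 5 and 2, 6 and 1, or 4 and 5 at 9 h, and 6 and 20, 9 and 14, or 9 and 17 at 27 h. Without heat replicate 3 there were 7 and 4 at 9 h, or 5.67%, against 3.98% of all spots.

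Spot 150602 had the most negative root heat change at 3 h. It read -0.60, -1.29 and -0.94 on heat arrays against 0.54, 0.43 and 0.36 on controls, with no overlap, a change of -1.38 (limma adjusted p = 0.00607). Spot 158627, negative in root cold at 9 h, changed by 1.56 in root heat at 3 h. At 9 h spot 148715 changed by 1.52 and spot 136979 by -1.29. The call of 136979, whose duplicate was not called, was lost with only the compared groups in the fit and without control replicate 1 or 2 or heat replicate 1 or 3 (-1.33 to -1.04). At 27 h spot 145076 changed by -1.33, a call lost with quantile scaling (-0.68). Spot 158627 changed by 1.24 at 27 h, a call lost with only the compared groups in the fit and without control replicate 1 (1.16) or heat replicate 3 (0.94).

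Among spots called under both stresses at 3 h in leaf, the pair 153617 and 154461 had the largest change. Spot 154461 read 4.51, 3.25 and 3.28 on the 3 h cold arrays and 3.68, 3.13 and 3.31 on the 3 h salt arrays, against 0.04, -0.41 and -0.17 on the controls. Neither stress overlapped the controls, and the change was 3.86 under cold (SE 0.53, limma adjusted p = 8.87e-06) and 3.55 under salt (limma adjusted p = 2.08e-04). Spot 153617 changed in root cold by 0.40 at 3 h, not called, and by 2.78 at 9 h, while in root salt it changed by 2.74 at 3 h. In leaf heat its changes of -0.60, -0.42 and -0.34 at 3, 9 and 27 h were not called, and its duplicate changed by -1.37 in root heat at 3 h (limma adjusted p = 0.00372).

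The annotation paired 40 of the 194 spots with a single gene, over 16 genes, 1 spot with 2 genes, and 153 with none. Of the 16 genes, all chosen spots were called positive in 7 after 3 h of leaf cold and in 12 after 9 h, in 1 after 3 h of leaf salt and in 11 after 9 h, and in 0 under leaf heat. In root salt it was 10, 9 and 6 genes at 3, 9 and 27 h, and in root cold 1, 5 and 8, with 1 gene negative at each time: LOC102577637, R1 and LOC102577637. No share over all annotated genes was computed, so these counts are a description. Under leaf heat at most 0.41% of all spots tested were called positive at any time. Gene values below are means over the chosen spots of a gene, which can share a clone and were selected for their leaf response. A gene is said to be called where all its chosen spots were, and its call to be lost where any of them no longer was.

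Among defence genes, ChtA (LOC102577835) had 4 spots from 2 clones, all of them chosen. Its leaf control arrays read -0.13, 0.03 and -0.06 at 9 h, the cold arrays 3.12, 3.44 and 1.93 and the salt arrays 2.28, 3.41 and 2.15. Neither stress overlapped the controls, and the change was 2.89 under cold and 2.67 under salt, called in all 4 spots (limma adjusted p up to 9.22e-05 and 0.00121). At 3 h it was 0.99 and 1.35, called in none. In root cold the change was -0.32 and -0.13 at 3 and 9 h, not called, and 2.55 at 27 h, called in all 4 (limma adjusted p up to 0.0036), with cold arrays at 3.29, 2.23 and 0.66 against -0.63, -0.21 and -0.64. At 9 h of cold leaf exceeded root by 3.01 in all 4 spots (limma adjusted p up to 0.0171), a call lost with quantile scaling (1.88) and without leaf cold replicate 2 (2.71) or root cold replicate 2 (2.60). In root salt it changed by 2.38 at 9 h and 2.25 at 27 h, called in 2 of the 4 spots at each time.

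RSI5, whose product is not described in the tables used here, was the 1 gene called at 3 h under both leaf stresses. At 3 h its 2 spots read 3.84, 2.57 and 2.45 on leaf cold arrays, 1.70, 1.60 and 1.78 on leaf salt arrays and 0.35, -0.11 and -0.07 on controls. All 3 groups were apart, and the change was 2.90 under cold (limma adjusted p up to 1.59e-06) and 1.64 under salt (up to 0.0126). The salt call was lost without control replicate 2 or 3 or salt replicate 2 or 3 (1.55 to 1.69). The direct difference of 1.26 was called, and was lost with quantile scaling (0.74), with only the compared groups in the fit, and without cold replicate 1 (0.82) or salt replicate 1 or 2 (1.21 to 1.26). In root cold it passed from -0.63 at 3 h, called negative in 1 of 2 spots, to 3.16 at 9 h, where the cold arrays read 3.38, 3.36 and 3.16 against 0.03, 0.39 and 0.01. In root salt it changed by 2.14, 2.08 and 1.46, called at each time. In root heat at 3 h its change was -1.12, called negative in both spots (limma adjusted p up to 0.0032), with heat arrays at -0.59, -0.92 and -0.71 against 0.20, 0.26 and 0.69.

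**Figure D5:**
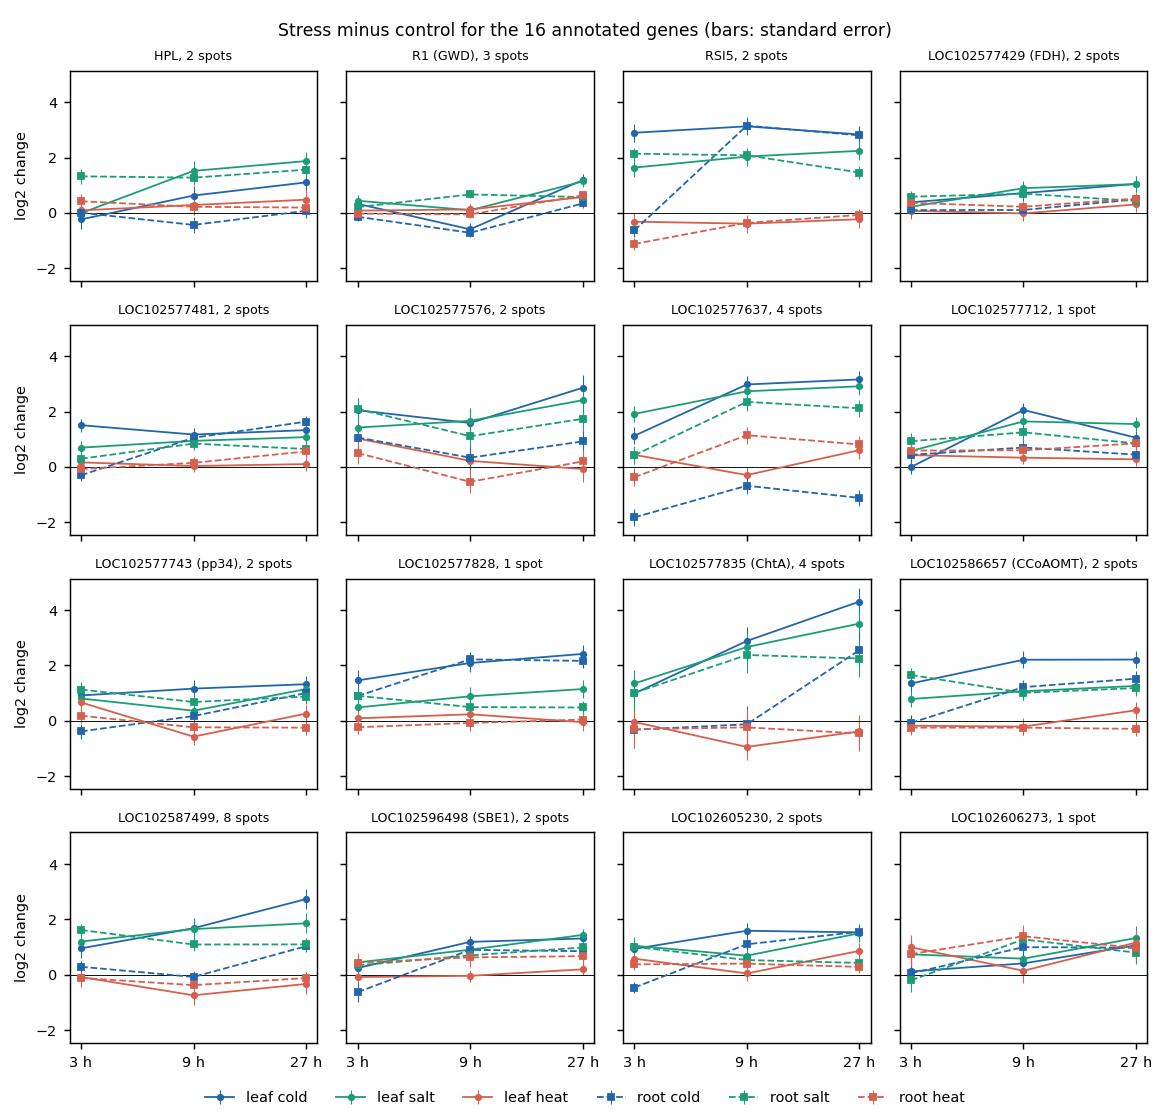
Change (log2 ratio, stress minus control) of the 16 annotated genes at 3, 9 and 27 h, as the mean over the chosen spots of the gene, in leaf (solid) and root (dashed) under cold, salt and heat. Bars are the median limma standard error of the single spots, not that of the mean. ChtA and RSI5 reach 2.5 or more in root cold by 27 h, while LOC102577637 is negative there and positive in root salt at 9 and 27 h.

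HPL encodes hydroperoxide lyase, which splits fatty acid hydroperoxides into the volatile aldehydes of damaged leaves. Its 2 chosen spots changed by -0.24, 0.63 and 1.10 in leaf cold at 3, 9 and 27 h, with no call at 3 or 9 h. In leaf salt they changed by -0.01, 1.52 and 1.87. At 9 h the salt arrays read 0.36, 1.97 and 1.42 against -0.59, 0.14 and -0.37, and the change was called in both spots (limma adjusted p up to 0.0111), although not with quantile scaling (1.34) nor without control replicate 1 (1.36) or salt replicate 2 (1.16). Root salt gave 1.32, 1.28 and 1.56, called at each time (limma adjusted p up to 0.0201), whereas root cold gave 0.01, -0.43 and 0.08, not called. The 3 h root salt arrays read 0.50, 1.18 and 1.0 against -0.18, -0.61 and -0.60, with no overlap. The root salt calls were lost without control replicate 2 at 3 h (1.17), control replicate 3 (1.08) or salt replicate 2 (1.01) at 9 h, and control replicate 2 (1.49) or salt replicate 3 (1.53) at 27 h.

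CCoAOMT (LOC102586657), a caffeoyl-CoA O-methyltransferase of the lignin pathway, changed by 1.35 and 2.21 in leaf cold at 3 and 9 h and by 0.79, not called, and 1.07 in leaf salt. At 9 h its cold arrays read 1.92, 2.37 and 1.77, its salt arrays 0.89, 0.69 and 1.07 and the controls 0.01, -0.41 and -0.16. The 3 groups did not overlap, and cold exceeded salt by 1.14 (limma adjusted p up to 0.0352), a call lost with quantile scaling (0.49) and without cold replicate 1 or 2 or any salt replicate (0.96 to 1.23). The leaf salt call at 9 h was lost with quantile scaling (1.04) and without control replicate 2 or 3 or any salt replicate (0.96 to 1.17). In root it changed by 1.66, 1.01 and 1.18 under salt, called at each time, where the 9 h call was lost without control replicate 1 or 2 or salt replicate 1 or 3 (0.88 to 1.0) and the 27 h call without control replicate 2 or 3 or salt replicate 1 or 3 (1.05 to 1.18). It changed by -0.08, 1.22 and 1.52 under cold, called at 9 and 27 h.

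R1, the starch dikinase gene named above, had 3 of its 4 spots chosen. Its leaf cold arrays read -0.18, -0.60 and 0.08 at 9 h against 0.33, 0.32 and 0.43 on the controls, with no overlap, and a change of -0.59 was called negative in 2 of the 3 spots (limma adjusted p 0.0351 to 0.0527). At 27 h the leaf cold arrays read 1.53, 0.99 and 0.80. In root cold at 9 h the change was -0.72, called in all 3 spots (limma adjusted p up to 9.03e-04), from 0.24, 0.42 and 0.23 on controls to -0.45, -0.32 and -0.49. In root salt at 9 h it was 0.67, called in all 3, a call lost with quantile scaling (0.61) and without any 1 of the 6 arrays (0.61 to 0.73). In root heat at 27 h it was 0.63, called in all 3, and lost with only the compared groups in the fit and without heat replicate 1 (0.62). The starch branching enzyme gene SBE1 (LOC102596498), which adds branches to starch, changed by 1.19 at 9 h of leaf cold and 0.91 at 9 h of leaf salt, both called and both lost with quantile scaling (0.56 and 0.60), the salt call also without salt replicate 2 (0.69). In root cold it changed by -0.63, 0.90 and 0.85, called in 1 of 2 spots at 9 h.

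FDH (LOC102577429) encodes the formate dehydrogenase of mitochondria. In leaf it changed by 0.38, 0.72 and 1.05 under cold and by 0.22, 0.90 and 1.04 under salt, with 1 of 2 spots called at 9 h of cold and both at 9 h of salt. Root cold gave 0.10, 0.11 and 0.49, not called, and root salt 0.59, 0.70 and 0.43, called at 3 and 9 h. All 3 salt calls moved with the setting. That in leaf at 9 h was lost with quantile scaling (0.81) and without control replicate 2 or 3 or any salt replicate (0.77 to 0.94). That in root at 3 h was lost with quantile scaling (0.58) and without any control or salt replicate 1 or 2 (0.53 to 0.64), and that at 9 h with centred arrays (0.69), with only the compared groups in the fit, and without control replicate 2 or 3 or salt replicate 1 or 2 (0.51 to 0.72). Of its 4 spots, 2 of another clone did not reach the edge of the choice.

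LOC102577637, with 4 of 6 spots from 3 clones, changed in opposite directions in leaf and root under cold. At 3 h its root cold arrays read -2.07, -2.39 and -1.57 against -0.59, -0.06 and 0.11, a change of -1.83 called in all 4 spots (limma adjusted p up to 1.89e-04). At 27 h the root cold change was -1.12, also called in all 4, though not with quantile scaling (-0.51), with only the compared groups in the fit, or without cold replicate 1 (-0.86), cold replicate 2 (-0.92) or control replicate 3 (-0.97). In leaf cold at 9 h its arrays read 2.65, 2.38 and 2.69 against -1.01, 0.07 and -0.28, a change of 2.98 (limma adjusted p up to 4.46e-06). These root 3 h and leaf 9 h cold arrays did not overlap their controls, and leaf exceeded root by 2.95 at 3 h and 3.66 at 9 h. At 9 h of root cold the 4 spots changed by -0.84 to -0.39 and were not all called. Nor were all 4 called at 3 h of leaf cold. In root heat at 9 h they changed by 0.97 to 1.30, again not all called. Under salt the root was positive, with 0.42 at 3 h, not called, 2.35 at 9 h and 2.12 at 27 h. Its 9 h root salt arrays read 1.62, 1.78 and 1.75 against -0.73, -0.41 and -0.82.

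LOC102587499 had 20 spots from 10 clones, of which 8 spots from 4 clones were chosen. These changed by 1.68 and 1.65 at 9 h of leaf cold and salt, called in all 8, and by 1.62, 1.09 and 1.10 in root salt, also called in all 8. The leaf calls were lost with quantile scaling (1.08 and 1.28), that under salt also without control replicate 3 (1.55) or salt replicate 2 (1.37). The root salt call was lost at 9 h without control replicate 1 or 2 or salt replicate 3 (0.98 to 1.11) and at 27 h without the same replicates (0.92 to 1.08). The 6 other eligible spots had 27 h leaf cold changes between -0.52 and 0.30, so clones placed on the same gene disagreed. LOC102577828 changed in both tissues under cold, by 1.46, 2.09 and 2.42 in leaf and 0.90, 2.22 and 2.17 in root, on its 1 chosen spot. Its 3 h root call was lost without cold replicate 3 (0.74), control replicate 1 (0.82) or control replicate 2 (0.72). LOC102577712 had a change of -0.01 at 3 h of leaf cold and of 2.06 at 9 h, a difference of 2.07 (limma adjusted p = 9.54e-04) whose call was lost with quantile scaling (1.32).

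LOC102577481 changed by 1.51 and 1.17 at 3 and 9 h of leaf cold and kept both calls under every alternative setting tried. It changed by -0.30, 1.05 and 1.63 in root cold. LOC102577576 changed by 2.05 and 1.59 in leaf cold and by 2.09, 1.11 and 1.74 in root salt, called at 3 and 27 h. Its 9 h leaf cold call was lost with quantile scaling (0.23), with only the compared groups in the fit, and without cold replicate 2 (0.93) or control replicate 3 (1.40), and its 27 h root salt call with quantile scaling (1.29) and without control or salt replicate 1 or 2 (1.45 to 1.71). LOC102605230 changed by 0.94 and 1.59 in leaf cold, and LOC102577743 (pp34) by 0.92 and 1.16. The 3 h calls of both were lost with quantile scaling (0.88 each) and without cold replicate 1 (0.83 each) or control replicate 1 or 2 (0.76 to 0.91), that of LOC102605230 also without cold replicate 2 (0.97) and that of LOC102577743 without cold replicate 3 (0.89). The 9 h call of LOC102577743 was lost with quantile scaling (0.35), with only the compared groups in the fit, and without cold replicate 2 (0.90) or control replicate 2 (1.10). LOC102606273 stood apart, with 0.12 and 0.41 in leaf cold, 0.74 and 0.58 in leaf salt, none called, and 1.39 in root heat at 9 h, called on its 1 chosen spot (limma adjusted p = 0.0493). That call was lost with centred arrays, with only the compared groups in the fit, and without control replicate 1 or 2 or heat replicate 1 or 3 (1.10 to 1.37).

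None of the 194 spots belongs to 5 further genes taken from lists of known stress and leaf genes. Among these, ERD10C, StP2C and cab1 had no spot with enough leaf values, so the rule could not have chosen them. Of the dehydrin and LEA list, Lea (LOC102577657), a late embryogenesis abundant protein gene, had 2 spots tested. They changed by 0.72 and 0.77 at 9 h of leaf cold, both called, but by -0.23 and -0.21 at 9 h of leaf salt, not called, and by -1.32 and -1.29 at 9 h of leaf heat, both called. The 2 spots of the dehydrin gene ERD10C had too few values to be tested. For the protein phosphatase 2C gene StP2C 1 spot was tested in root alone, with 2.72, 3.59 and 1.95 in cold, all called, and 1.49 at 3 h of salt, called. Of the 8 spots tested in leaf for dnaJ, a heat-shock co-chaperone gene, 2 were called positive at 3 h of cold and 0 at 9 h of cold or salt. The chlorophyll a/b-binding protein gene cab1 had 0 spots tested in leaf, and its 2 spots tested in root were called negative at each time of cold, between -3.96 and -3.30. Both were also called negative at 27 h of root heat (-2.95 and -2.87), and at no time of root salt.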

How the data were processed

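The deposited table gives a log2 ratio for each spot and array, made by the authors with limma, per the submitters' processing notes. The sources used here do not give the version, background correction or normalization. No intensities were used, so levels above background are unknown, and precision is limited by the number of arrays.

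Changes were fitted with limma 3.58.1 (R 4.3.3, lmFit and eBayes) to the 36 arrays of either tissue (12 groups, 3 arrays each), or to all 72 for leaf against root, on spots with at least 2 values in every group, and p-values were adjusted over all spots tested (15601 in leaf, 14866 in root, 13585 in both). The fit was tested on simulated data with independent noise on each array. That test could not show the effect of correlated arrays or of the unequal spread between conditions. Alternatives were quantile scaling, centred arrays, 3 values in every group, averaged duplicates, only the compared groups, each array left out in turn and the replicate number as a block. Per the labels a number marks an independent experiment, so the numbers pair arrays; deviations of same-numbered arrays correlated at r -0.04 to 0.50.

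The 194 spots and the gene lists were chosen with earlier results of these data known. Named spots were the 2 with the largest smaller 27 h leaf change, the largest early leaf change called under both stresses, the extremes of the called 9 h cold and salt difference, the extremes called in root and leaf heat comparisons, and the spots nearest the edge, with 1 spot named per duplicate pair. Gene names came from the platform annotation and RefSeq, where 1630 spots had 1 gene symbol, 180 several and 30638 none. All 16 genes of the set are named.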

Additional observations from a re-analysis of the deposited data

Results flagged for a closer look

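Some changes of the 194 spots differed between times or tissues in a direct test (limma, adjusted p under 0.05). Under cold the leaf change differed between 9 h and 3 h in 18 spots, against 1.41% of all tested spots positive and 0.891% negative. With quantile scaling 0 were positive and 1 negative, against 0.256% of all spots in either direction. The cold change differed between leaf and root in 76 spots at 3 h and in 73 at 9 h. Of all spots 5.34% were higher and 1.37% lower in leaf at 3 h, and 4.09% and 4.95% at 9 h. The salt change differed in 19 spots at 3 h and in 4 at 9 h, against 0.869% and 1.07%, and 0.0662% and 0.206%. With quantile scaling cold at 9 h gave 16 higher and 0 lower, against 1.69% of all spots in either direction. Salt at 3 h then gave 20 and 1, against 1.3%, where the deposited ratios gave 7 and 12. Groups of 3 arrays are too small for a test of single outlying arrays, so none was made.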

How the results depend on the processing

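No alternative setting turned the sign of a called named spot or gene. The replicate block moved none of the counts by more than 1.5 times, and it changed none of the 111 named calls. Of those calls, 55 held under every alternative and 31 were lost with quantile scaling. Quantile scaling moved the percent of the 194 spots called to 52.6% for leaf cold at 9 h, 40.2% for leaf salt at 3 h, 2.06% and 2.58% for leaf heat at 3 and 9 h, 0% for cold minus salt at 9 h, 0.515% for leaf cold 9 h minus 3 h, 29.4% for root cold at 9 h, 25.3% and 22.2% for root heat at 3 and 9 h, and 8.25% and 1.03% for leaf minus root under cold and salt at 9 h. With only the compared groups in the fit it was 1.55% for cold minus salt at 9 h, 1.03% for root heat at 27 h and 4.64% for leaf minus root under salt at 3 h. Of all spots those fits called 0.788%, 1.52% and 1.07%. The cause was not tested. The choice gave 145 spots with quantile scaling, of which 111 are among the 194. It gave 126 spots with 3 values required in every group and 115 with duplicates averaged, both by construction from fewer spots. Leaving out 1 array at a time gave 39.2% to 47.9% and 74.7% to 85.1% for leaf cold at 3 and 9 h, 15.5% to 22.7% and 46.9% to 67.5% for leaf salt, and 0% throughout for leaf heat at 3 and 9 h. Cold minus salt gave 1.55% to 11.3% at 3 h and 7.22% to 18% at 9 h, leaf cold 9 h minus 3 h 7.22% to 14.4%, and leaf salt 9 h minus 3 h 0% throughout. Root cold gave 10.3% to 17.0%, 39.7% to 42.8% and 55.2% to 62.4% at 3, 9 and 27 h, root salt 56.7% to 65.5%, 38.1% to 43.3% and 19.1% to 41.2%, and root heat 9.79% to 13.9%, 1.55% to 7.22% and 8.25% to 24.2%. Leaf minus root gave 32.0% to 39.7% and 28.9% to 43.3% under cold at 3 and 9 h and 3.61% to 9.28% and 1.03% to 5.67% under salt. For these ranges the shares of all spots are given above only for the counts named there. The ranges therefore describe how far the percents moved, and do not set the 194 spots apart from all spots. The number of spots chosen was 176 to 222. The median change turned sign in 2 of 12 alternatives for leaf heat at 3 h, 4 for root heat at 27 h, 2 and 1 for cold minus salt at 3 and 9 h, and 1 of 18 for leaf salt 9 h minus 3 h and for leaf minus root under salt at 3 h.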
